A study of Rattus norvegicus with 16 samples.

Results

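The 7 heme synthesis enzymes Alas1, Alad, Uros, Urod, Cpox, Ppox and Fech were examined in rat liver RNA-seq. They were chosen by symbol from the 17168 genes of the count table, and all 7 passed the filter on low counts, which left 11162 genes to test. The livers came from Sprague Dawley rats aged 20 weeks that were wild type (WT) or tspo -/- (knockout, KO). The gene product, TSPO or translocator protein, sits in the outer membrane of mitochondria. From 12 weeks of age the rats ate chow or a methionine-choline deficient (MCD) diet for 8 weeks, the latter being used to induce fatty liver with inflammation. The 4 groups of 4 libraries are called WT-CHOW, KO-CHOW, WT-MCD and KO-MCD below, each library with the number in its label. All groups share the strain, the age and the tissue, and the labels give neither the part of Tspo that was removed nor whether each library came from a separate rat, so p-values measure only the spread between these libraries.

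Heme is an iron porphyrin, the oxygen- and electron-handling group of hemoglobin, catalase and the cytochromes. Its synthesis starts in mitochondria, where 5-aminolevulinate synthase joins glycine and succinyl-CoA. The middle steps run in the cytosol, and the last steps return to mitochondria, where iron is put into the ring. Liver uses the synthase Alas1, which heme itself represses, and much of its heme goes into cytochromes P450. Red cell precursors use a separate synthase, Alas2. TSPO binds porphyrins, and a part in heme handling has been proposed for it.

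On the MCD diet the enzymes did not move as a block. Ppox, the protoporphyrinogen oxidase of the next-to-last step, fell in both genotypes, 2.34-fold in wild-type and 2.95-fold in knockout rats. Alad, the porphobilinogen synthase of the second step, fell 1.63-fold and 1.60-fold. Urod, the uroporphyrinogen decarboxylase, fell 1.55-fold in the knockout. Alas1, the entry enzyme, had the highest estimates, 1.73-fold and 1.76-fold above chow, which did not pass the threshold of an adjusted p of 0.05. In the wild type 0 of 7 enzymes were higher and 2 lower, where 18.2% of all genes tested were higher and 15.9% lower. In the knockout 0 were higher and 3 lower, where the shares over all genes were 21.9% and 18.5%. The split turned when libraries were scaled by their totals alone: Alas1, Cpox and Fech were then called higher and Ppox lower in each genotype, Alad was not called (log2 folds of -0.18 and 0.06), and of all genes 43.1% were higher and 4.55% lower in the wild type and 57.8% and 3.63% in the knockout. The median log2 fold of the 7 enzymes was -0.12 in wild-type and -0.49 in knockout rats, and over all genes it was -0.00 and 0.04. In bulk liver, fewer cells of a type and less RNA per cell cannot be told apart.

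Libraries totalled 8745756 to 15762660 counts, and levels are given as CPM, counts adjusted for library size with TMM factors. Tspo lay between 0.656 and 1.66 CPM in 6 of the 8 libraries labelled KO. The library labelled KO-CHOW 4 had 4.42 CPM, inside the WT-CHOW range of 3.61 to 5.23 CPM, and the library labelled KO-MCD 1 had 4.17 CPM, below the WT-MCD range of 7.63 to 9.34 CPM. These libraries and WT-CHOW 4 also stood apart on the second principal component of all genes, at -63.7, -44.2 and -33.0 against -9.12 or more in the other 13. Results on the enzymes are therefore given with and without these 3 libraries. Markers of hepatocytes were present in every library, and their summed level ran from 174061 to 216244 CPM in WT-CHOW, 182743 to 243258 in KO-CHOW, 100079 to 139537 in WT-MCD and 105733 to 129148 in KO-MCD, with 5 of 10 markers lower on the MCD diet in each genotype, against 15.9% and 18.5% of all genes. Scaled by library totals alone, 2 were lower in the wild type, and 1 was lower and 1 higher in the knockout. With that scaling 4.55% of all genes were lower in the wild type, and 3.63% were lower and 57.8% higher in the knockout.

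Without the 3 libraries more of the enzymes passed the threshold. In the wild type Alas1, Fech and Cpox rose and Alad, Urod and Ppox fell, so 6 of 7 were called, where 25.8% of all genes were higher and 24.7% lower. In the knockout Alas1 and Fech rose and Alad, Urod and Ppox fell, so 5 of 7 were called, against 27.9% and 23.8% of all genes. Alas1 was then at a log2 fold of 0.59 ± 0.19 (SE, adjusted p = 0.0153) in the wild type and 0.82 ± 0.20 (adjusted p = 0.00297) in the knockout. The background share of called genes rose as well, so the counts with and without the 3 libraries are read each against its own background.

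**Figure D1:**
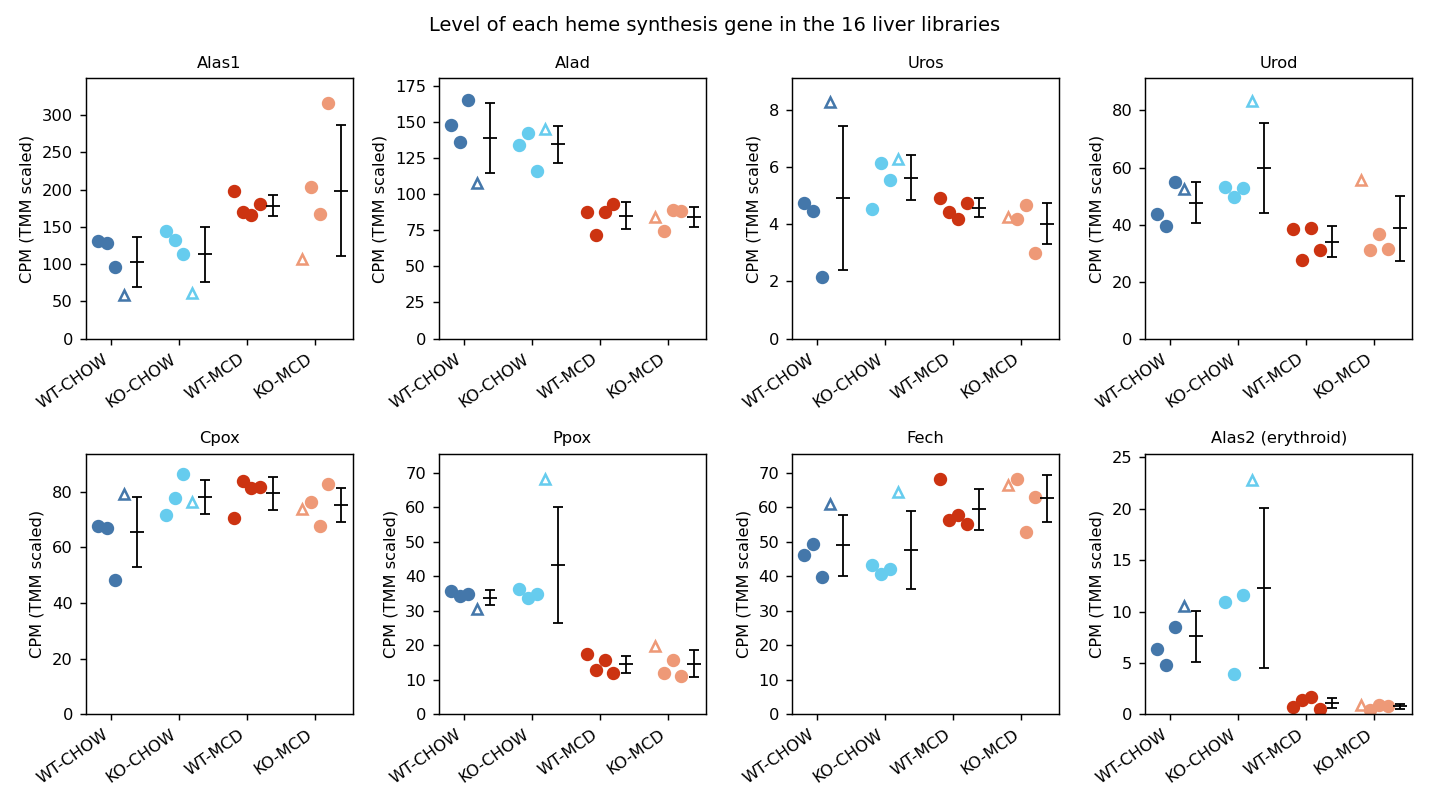
Level of each of the 7 enzymes and of Alas2 in CPM (vertical axis, from 0) in the 16 libraries, by group. Filled circles are single libraries, open triangles the 3 libraries that stood apart (WT-CHOW 4, KO-CHOW 4 and KO-MCD 1), and the black bars mean ± SD with n = 4. Alad lies at 107 to 165 CPM on chow and 71.6 to 93.4 CPM on the MCD diet, and Ppox at 30.6 to 68.3 and 11.1 to 19.8 CPM.

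Promoter sequence was read for the 3 enzymes that fell and for Alas1, to set their start sites side by side. RefSeq windows of assembly GRCr8, from 250 bases before to 50 after the start, matched 6 of the 7 enzymes by symbol. The stretch from 110 bases before the start to 20 after it is shown 5′ to 3′ on the gene's strand, with matches to the searched motifs in capitals on either strand. Alas1 is at chr8:115768623-115768752, Alad at chr5:80987882-80988011, Urod at chr5:135705361-135705490 and Ppox at chr13:86234227-86234356, all on the minus strand.
Alas1: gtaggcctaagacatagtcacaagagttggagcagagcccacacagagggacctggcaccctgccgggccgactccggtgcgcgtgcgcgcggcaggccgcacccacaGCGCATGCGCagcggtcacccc
Alad: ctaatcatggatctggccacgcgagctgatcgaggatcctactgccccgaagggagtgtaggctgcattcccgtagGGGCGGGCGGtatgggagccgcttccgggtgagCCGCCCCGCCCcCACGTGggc
Urod: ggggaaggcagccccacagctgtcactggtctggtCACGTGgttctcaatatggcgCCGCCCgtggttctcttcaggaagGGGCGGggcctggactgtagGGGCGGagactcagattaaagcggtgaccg
Ppox: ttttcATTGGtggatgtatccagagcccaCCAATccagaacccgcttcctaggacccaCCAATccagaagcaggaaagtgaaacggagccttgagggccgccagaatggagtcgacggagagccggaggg

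The 4 stretches differ in which motifs they hold. Alas1 has GCATGCGC, the core of the nuclear respiratory factor 1 motif, on both strands in an overlap at its start, a motif found in 2.47% of the 33469 windows of 300 bases. Alad and Urod hold the E-box CACGTG, found in 6.42% of windows. GGGCGG, the core of the Sp1 motif, was in the whole windows of Alad, Urod, Ppox and Fech and in 33.1% of all windows. Ppox has CCAAT on 3 occasions in the stretch shown, once read on the opposite strand as ATTGG, and Alad has it further upstream, against 37.5% of windows. The GATA motif AGATAA was in the window of Fech and in 11.6% of windows, and in that of Alas2. None of the 6 windows held the second GATA form TGATAA (found in 9.03% of all windows), the erythroid Kruppel-like factor motif CCACACCC (3.22%) or the TATA box TATAAA (14.2%). The nuclear receptor motif AGGTCA (16.2%) and the core of the Maf recognition element, TGACTCA (4.63%), were not in them either. The windows of the 6 enzymes had 53.7 to 66.3% G and C, above the median of 51.7%.

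Alas1 joins glycine and succinyl-CoA and sets the pace of heme synthesis in hepatocytes. In WT-CHOW it stood at 130.6, 127.7, 96.2 and 57.9 CPM in libraries 1 to 4, and in WT-MCD at 197.4, 169.6, 166.3 and 180.2 CPM. Each WT-MCD library lay above each WT-CHOW library, and WT-CHOW 4 was the lowest of the chow libraries. The log2 fold was 0.79 ± 0.32 (adjusted p = 0.0654). In KO-CHOW the values were 144.5, 132.3, 114.2 and 61.4 CPM, and in KO-MCD 106.4, 203.7, 167.6 and 316.4 CPM. Here the groups overlapped, because the library labelled KO-MCD 1 lay below 3 of the 4 KO-CHOW libraries, and KO-MCD 4 was the highest of all 16. Its log2 fold in the knockout was 0.81 ± 0.32 (adjusted p = 0.0523). Leaving out 1 library at a time, Alas1 passed in the wild type without KO-CHOW 4, KO-MCD 1 or KO-MCD 4 (adjusted p = 0.0357, 0.0389 and 0.044) and in the knockout without WT-CHOW 4, KO-CHOW 1 or KO-MCD 1 (adjusted p = 0.033, 0.046 and 0.0123). KO libraries are not in the wild-type contrast, nor WT libraries in the knockout one. Such libraries act on these calls through estimates shared by all libraries, such as the spread. Alas1 was lowest in its group in WT-CHOW 4, in the library labelled KO-CHOW 4 and in that labelled KO-MCD 1, the 3 libraries that stood apart.

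Alad condenses aminolevulinate to porphobilinogen. In WT-CHOW it stood at 147.7, 135.9, 165.1 and 107.4 CPM and in WT-MCD at 87.8, 71.6, 87.7 and 93.4 CPM. No WT-MCD library reached the lowest WT-CHOW one. This was a log2 fold of -0.71 ± 0.15 (adjusted p = 0.00225). In KO-CHOW it was at 133.7, 142.4, 116.1 and 145.1 CPM and in KO-MCD at 84.3, 74.6, 89.3 and 88.3 CPM, again with no overlap. The log2 fold was -0.67 ± 0.15 (adjusted p = 0.00259), and it turned to 0.06 when counts were scaled by library totals alone, which in the wild type left -0.18 (adjusted p = 0.431). Scaling by library totals moved the median gene to 0.53 in wild-type and 0.77 in knockout rats, and relative to that median Alad was at -0.71 in each. Directions in this text are thus read against the typical gene. By group mean Alad ran from 139.0 ± 24.3 CPM in WT-CHOW through 134.3 ± 13.1 in KO-CHOW and 85.1 ± 9.42 in WT-MCD to 84.1 ± 6.67 in KO-MCD (SD, n = 4), and the genotypes on each diet lay within each other's spread.

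Uros closes the linear tetrapyrrole to uroporphyrinogen III. It had 15 to 101 counts a library, the fewest of the 7, so its values carry the most counting error. It ranged from 2.17 to 8.28 CPM in WT-CHOW, with WT-CHOW 3 lowest and WT-CHOW 4 highest, and from 4.19 to 4.92 CPM in WT-MCD, which lay within that range. It ranged from 4.54 to 6.29 CPM in KO-CHOW and from 2.98 to 4.66 CPM in KO-MCD. The log2 folds were -0.12 ± 0.28 (adjusted p = 0.768) and -0.49 ± 0.28 (adjusted p = 0.177). Their intervals of 95% ran from -0.73 to 0.49 and from -1.10 to 0.13.

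Urod removes carboxyl groups from uroporphyrinogen to give coproporphyrinogen. In WT-CHOW it stood at 43.8, 39.5, 54.9 and 52.4 CPM and in WT-MCD at 38.5, 27.6, 38.9 and 31.1 CPM. The groups did not overlap, by a margin under the spread within either, and the log2 fold of -0.48 ± 0.22 (adjusted p = 0.0934) did not pass, though it did without KO-MCD 1 (adjusted p = 0.0491). KO-MCD 1 is outside that contrast and acts on it through the shared estimates. In KO-CHOW it was at 53.3, 49.6, 52.8 and 83.3 CPM and in KO-MCD at 55.5, 30.9, 36.7 and 31.4 CPM. The libraries labelled KO-CHOW 4 and KO-MCD 1 were each the highest of their group, and the latter overlapped the chow libraries. Across them the log2 fold was -0.63 ± 0.22 (adjusted p = 0.0298). The call was lost without the library labelled KO-CHOW 4 (-0.43, adjusted p = 0.111) and without KO-MCD 2, 3 or 4 in turn (adjusted p = 0.0959, 0.0683 and 0.0921), and it stood without all 3 libraries that stood apart (-0.65, adjusted p = 0.00216). With library totals alone both directions turned, to 0.05 in wild-type and 0.11 in knockout rats, and relative to the median gene they were -0.47 and -0.66.

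Cpox, the coproporphyrinogen oxidase of the mitochondrial intermembrane space, ranged from 48.4 to 79.2 CPM in WT-CHOW, 70.7 to 84.0 CPM in WT-MCD, 71.8 to 86.3 CPM in KO-CHOW and 67.8 to 82.8 CPM in KO-MCD. All 4 ranges overlapped, and WT-CHOW 3 was the lowest library. The log2 fold was 0.28 ± 0.15 (adjusted p = 0.152) in the wild type. In the knockout it was -0.05 ± 0.15 (adjusted p = 0.79), with a 95% interval from -0.37 to 0.27. It passed the threshold in the wild type without the 3 libraries, at 0.38 ± 0.13 (adjusted p = 0.0258).

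Ppox oxidises protoporphyrinogen to protoporphyrin at the inner mitochondrial membrane. In WT-CHOW it stood at 35.6, 34.3, 34.8 and 30.6 CPM and in WT-MCD at 17.5, 12.7, 15.7 and 11.9 CPM. In KO-CHOW it was at 36.2, 33.7, 34.9 and 68.3 CPM and in KO-MCD at 19.7, 12.0, 15.9 and 11.1 CPM. Every MCD library lay below every chow library, and the library labelled KO-CHOW 4 stood far above the other 7 chow libraries, which spanned 30.6 to 36.2 CPM. The log2 fold was -1.23 ± 0.24 (adjusted p = 0.00115) in the wild type and -1.56 ± 0.24 (adjusted p = 0.000161) in the knockout. Leaving out the 3 libraries gave -1.28 ± 0.14 and -1.43 ± 0.16. By group mean Ppox ran from 43.3 ± 16.7 CPM in KO-CHOW (SD, n = 4) through 33.8 ± 2.20 in WT-CHOW and 14.7 ± 3.97 in KO-MCD to 14.4 ± 2.59 in WT-MCD, and the genotypes on each diet differed by less than the larger SD. Ppox kept its direction and its call in all 28 alternatives in both genotypes, library totals alone included (-0.71 and -0.81).

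Fech, the ferrochelatase that puts iron into protoporphyrin, stood at 46.1, 49.3, 39.7 and 60.8 CPM in WT-CHOW and 68.3, 56.2, 57.7 and 55.1 CPM in WT-MCD. Only WT-CHOW 4 reached into the MCD range. In KO-CHOW it was at 43.4, 40.7, 42.2 and 64.5 CPM and in KO-MCD at 66.3, 68.2, 52.8 and 63.0 CPM. Here the library labelled KO-CHOW 4 alone reached into the MCD range. The log2 folds were 0.28 ± 0.17 (adjusted p = 0.224) and 0.39 ± 0.17 (adjusted p = 0.0792). Without the library labelled KO-CHOW 4 alone Fech passed in the knockout, at 0.57 (adjusted p = 0.00997). With the 3 libraries left out Fech rose by 0.39 ± 0.12 (adjusted p = 0.0128) and 0.54 ± 0.13 (adjusted p = 0.00238).

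**Figure D2:**
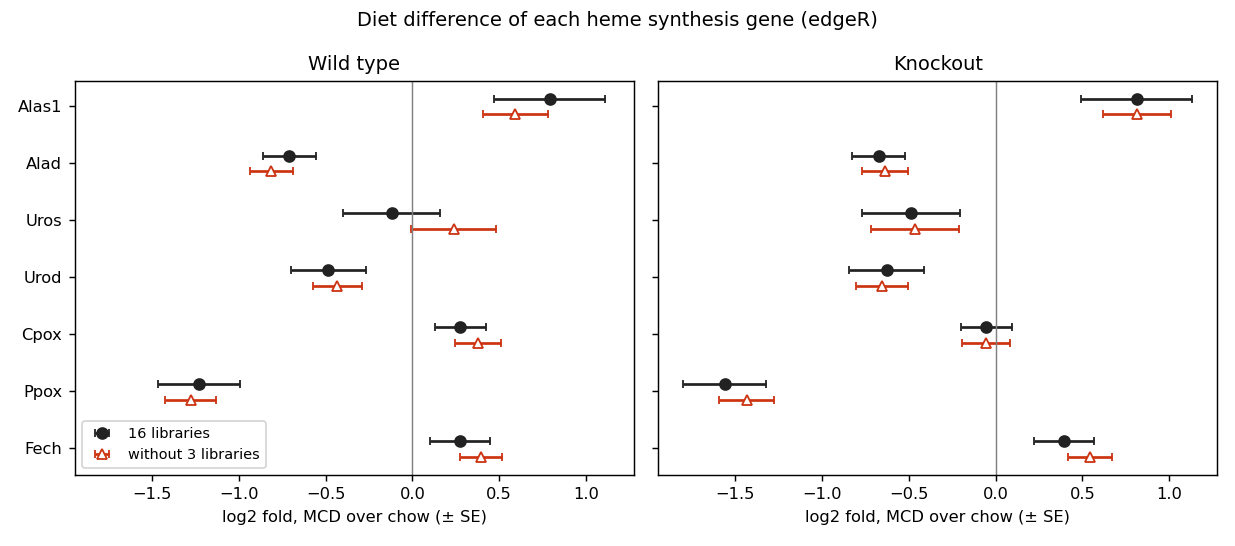
Log2 fold of MCD over chow (horizontal axis, ± SE) of the 7 enzymes in the wild type (left) and the knockout (right), with all 16 libraries (black circles) and without the 3 libraries that stood apart (open triangles). Ppox and Alad lie left of 0 in each panel and Alas1 and Fech right of it, but only Ppox, Alad and, in the knockout, Urod passed the threshold with 16 libraries, and with library totals alone Alad in the knockout and Urod in both genotypes turned to 0.06, 0.05 and 0.11.

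Pairs of enzymes were also compared within single libraries. The ratio of 2 genes' counts in a library does not depend on scaling, and the ratios below were chosen after the values were seen and carry no test. Alas1 had 1.89 to 3.72 counts per count of Ppox in WT-CHOW and 10.6 to 15.1 in WT-MCD. In KO-CHOW it had 0.90 to 3.99 and in KO-MCD 5.39 to 28.5. Fech, which acts on the product of Ppox, had 1.14 to 1.98 counts per count of Ppox in WT-CHOW, 0.945 to 1.21 in KO-CHOW, 3.69 to 4.63 in WT-MCD and 3.33 to 5.70 in KO-MCD. Alas1 per count of Alad, the next enzyme, went from 0.539 to 0.939 in WT-CHOW and 1.90 to 2.37 in WT-MCD, and from 0.423 to 1.08 in KO-CHOW and 1.26 to 3.58 in KO-MCD. In each of these ratios every MCD library lay above every chow library. Ppox and Alad, the denominators, by themselves lay lower in every MCD library than in every chow library, so the ratios partly restate their fall. How many pairs among all genes separate the diets in this way was not counted.

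**Figure D3:**
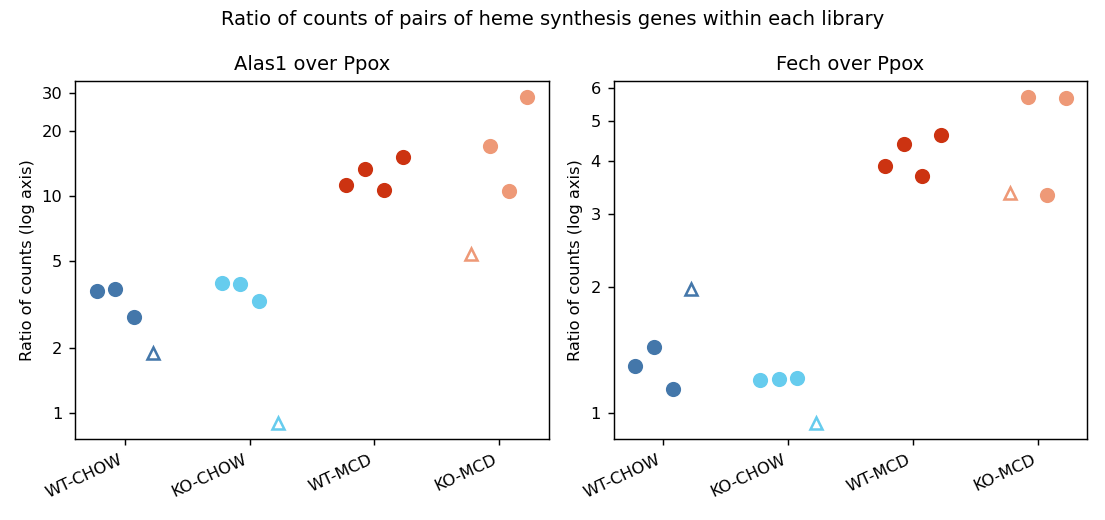
Ratio of counts of Alas1 over Ppox (left) and Fech over Ppox (right) in each library, on log axes, by group; open triangles are the 3 libraries that stood apart. The chow libraries lie at 0.90 to 3.99 and 0.945 to 1.98, the MCD libraries at 5.39 to 28.5 and 3.33 to 5.70.

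**Figure D4:**
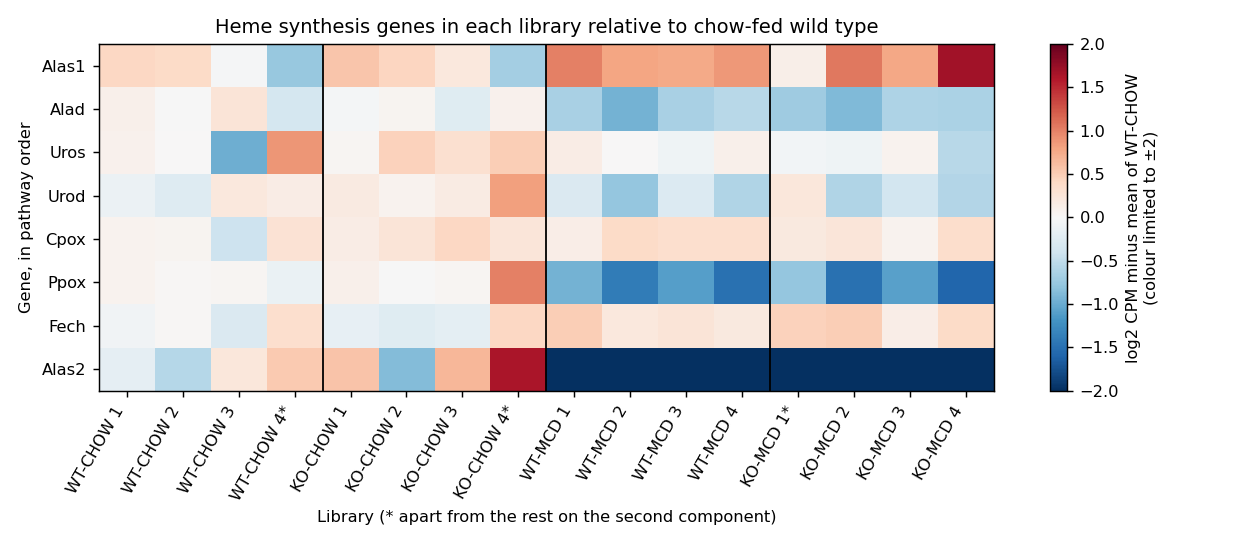
Log2 CPM of the 7 enzymes in pathway order and Alas2 (rows) in the 16 libraries (columns, an asterisk marking the 3 that stood apart), each relative to the gene's mean in WT-CHOW, with colour limited to 2 on either side. Ppox and Alad are blue in each MCD library, and Alas1 is palest there in KO-MCD 1. KO-CHOW 4 is red for Urod, Ppox and Alas2, less strongly so for Uros, Fech and Cpox, and blue for Alas1.

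Alas2, the synthase of red cell precursors, fell from 7.58 ± 2.50 to 1.10 ± 0.53 CPM (SD, n = 4) in the wild type, a log2 fold of -2.78 ± 0.47 (adjusted p = 0.000401), and from 12.3 ± 7.78 to 0.766 ± 0.208 CPM in the knockout, at -3.99 ± 0.49 (adjusted p = 2.56e-05). On the MCD diet Alas2 rested on 8 to 28 counts a library. Alas2 is itself among the 21 red cell markers listed, of which 15 were in the table and 11 could be tested. Of those tested 8, Alas2 included, fell and 1 (Tmem56) rose on the MCD diet in each genotype. Their summed level was 1331 to 1963 CPM in WT-CHOW, 618 to 5089 CPM in KO-CHOW, 126 to 297 CPM in WT-MCD and 150 to 200 CPM in KO-MCD. Gata1, Klf1, Rhag and Kel did not pass the filter on low counts and were not tested. Of these only Gata1 was at 0 in all KO-MCD libraries. Red cell precursors also express the later enzymes of the pathway, and their markers were lower in the same 8 libraries as Ppox and Alad. Within KO-CHOW the sum was 618 CPM in library 2 and 1996 and 2045 CPM in libraries 1 and 3, while Ppox was at 33.7 CPM in library 2 and 36.2 and 34.9 CPM in the others, and Alad was at 142.4, 133.7 and 116.1 CPM. The library labelled KO-CHOW 4 had the highest red cell sum, 5089 CPM, and the highest Ppox and Urod. The part of the red cell markers in the diet differences of the enzymes was not tested.

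Knockout and wild type were then compared on each diet, which asks whether loss of Tspo moved the enzymes. No member passed the threshold, that is 0 of 7 with edgeR, 0 at an unadjusted p under 0.05, 0 with DESeq2 and 0 with limma, on chow, on the MCD diet and for the difference of the diet effects. Over all genes edgeR called 1 on chow (0.00896%), 0 on the MCD diet (0%) and 0 for the difference (0%). When the 3 libraries that stood apart were left out it called 516 genes on chow (4.6%), 1 on the MCD diet (0.00891%) and 20 for the difference (0.178%), and again 0 of the 7 enzymes in each. With all 16 libraries, 1153, 81 and 330 of the 11162 genes were at an unadjusted p under 0.05 in edgeR. Over all genes and with the same 16 libraries DESeq2 called 23, 0 and 1, and limma called 2, 0 and 0. On chow the log2 folds of knockout over wild type ran from -0.05 ± 0.15 (Alad) to 0.35 ± 0.23 (Ppox), with Cpox at 0.25 ± 0.15 and the smallest unadjusted p, 0.109. On the MCD diet they ran from -0.19 ± 0.28 (Uros) to 0.18 ± 0.22 (Urod). The diet effects of the 2 genotypes differed by -0.37 ± 0.40 (Uros) to 0.12 ± 0.24 (Fech). For Ppox the value on chow was 0.00 ± 0.15 without the 3 libraries. Tspo itself was at a log2 fold of -1.23 ± 0.49 (adjusted p = 0.46) on chow and -2.07 ± 0.45 (adjusted p = 0.999908, unadjusted p = 0.00029) on the MCD diet. Tspo was called lower on both diets without the 3 libraries, at -1.93 ± 0.28 (adjusted p = 0.00461) and -2.68 ± 0.22 (adjusted p = 4.88e-05). KO-CHOW 4 and KO-MCD 1 had been singled out partly by their high Tspo. Leaving them out thus widens the Tspo difference by construction, and these calls are no independent test of it. Leaving out 1 library in turn, the value of Tspo on chow ran from -2.04, without KO-CHOW 4, to -0.94, without KO-CHOW 2, and was not called.

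Genes that supply, carry or use heme were described beside the enzymes. Of 20 tested genes of precursor supply and heme or porphyrin transport 2 rose and 6 fell in the wild type and 4 rose and 9 fell in the knockout, with median log2 folds of -0.02 and -0.19. These and the following counts are read against the shares over all genes in the same setting. With TMM and all libraries these were 18.2% higher and 15.9% lower in the wild type and 21.9% and 18.5% in the knockout. With library totals alone they were 43.1% and 4.55% in the wild type and 57.8% and 3.63% in the knockout. Without the 3 libraries that stood apart they were 25.8% and 24.7%, and 27.9% and 23.8%. Slc46a1, a carrier of folate and heme, fell by 1.26 and 1.03 on the log2 scale (SE 0.16 each). Slc25a38, the mitochondrial glycine carrier that feeds the synthase, fell by 0.99 ± 0.27 and 0.76 ± 0.26, and Suclg1, a subunit of succinyl-CoA ligase, by 0.44 ± 0.14 and 0.58 ± 0.14. Abcb8, a mitochondrial transporter, rose by 0.78 ± 0.20 and 0.74 ± 0.20. With library totals alone 8 rose and 1 fell in the wild type and 9 rose and 0 fell in the knockout, so the split of this list turns with the scaling. Without the 3 libraries that stood apart 6 rose and 6 fell, and 5 rose and 10 fell.

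Ferrochelatase carries an iron-sulfur cluster, so genes of cluster assembly and the ferredoxins were listed too. Of 13 tested 1 rose and 4 fell in the wild type and 0 rose and 7 fell in the knockout, with medians of -0.51 and -0.70. Fdx1, a ferredoxin that passes electrons, was at -1.30 ± 0.32 (adjusted p = 0.00631) and -1.44 ± 0.32 (adjusted p = 0.0027). The scaffold Iscu was at -1.03 ± 0.28 and -1.15 ± 0.28, the ferredoxin reductase Fdxr at -0.64 ± 0.18 and -0.70 ± 0.18, and the cysteine desulfurase Nfs1 at -0.42 ± 0.16 and -0.49 ± 0.16, all called. With library totals alone 2 rose and 1 fell in the wild type and 3 rose and 1 fell in the knockout. Without the 3 libraries that stood apart 1 rose and 7 fell, and 1 rose and 8 fell.

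Among 18 tested genes that control Alas1, 5 rose and 3 fell in the wild type and 5 rose and 2 fell in the knockout, where 18.2% of all genes rose and 15.9% fell, and 21.9% and 18.5%. Ppargc1a, the fasting-induced coactivator of the Alas1 promoter, rose from 0.763 ± 0.460 to 6.17 ± 1.19 CPM in the wild type and from 0.424 ± 0.392 to 6.10 ± 2.99 CPM in the knockout. Foxo1, its partner at that promoter, rose by 1.95 ± 0.33 (adjusted p = 0.0004) and 2.42 ± 0.34 (adjusted p = 7.65e-05). Bach1, a heme-binding repressor, rose by 1.11 ± 0.25 and 1.28 ± 0.25, and Nr1i3, the drug-sensing receptor CAR, by 2.12 ± 0.57 and 1.78 ± 0.57. The genes named here were picked by smallest p and all rose, while those that fell are not named. The median summed level of the list was 3615 CPM in WT-CHOW and 2236 CPM in WT-MCD. It was 2812 CPM in KO-CHOW and 2219 CPM in KO-MCD. Whether any of these genes acted on Alas1 was not tested. The list's medians were 0.11 and 0.07. Of its genes 9 and 12 rose with library totals alone and 0 fell in either genotype. Without the 3 libraries that stood apart 7 rose and 5 fell, and 7 rose and 3 fell.

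Of 31 tested heme proteins 4 rose and 13 fell in the wild type and 5 rose and 13 fell in the knockout, with medians of -0.66 and -0.63. Cat, the peroxisomal catalase, fell from 4550 ± 636 to 1651 ± 256 CPM and from 4867 ± 432 to 1543 ± 284 CPM. Cyb5a, the microsomal cytochrome b5, fell by 1.35 ± 0.15 and 0.97 ± 0.15 on the log2 scale. The cytochrome P450 gene Cyp2c23 fell by 2.40 ± 0.31 and 2.11 ± 0.31, and Cyp2a2 by 1.77 ± 0.28 and 1.62 ± 0.28, although both have close copies that may share reads. With library totals alone 6 rose and 9 fell, and 8 rose and 7 fell. In the list of heme breakdown and scavenging 0 of 10 rose and 2 fell in each genotype, where 15.9% and 18.5% of all genes fell. These were biliverdin reductase B (Blvrb, -0.74 ± 0.16 and -0.94 ± 0.16) and the constitutive heme oxygenase Hmox2 (-0.46 ± 0.13 and -0.57 ± 0.13). With library totals alone 3 and 4 rose and 0 fell.

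**Figure D5:**
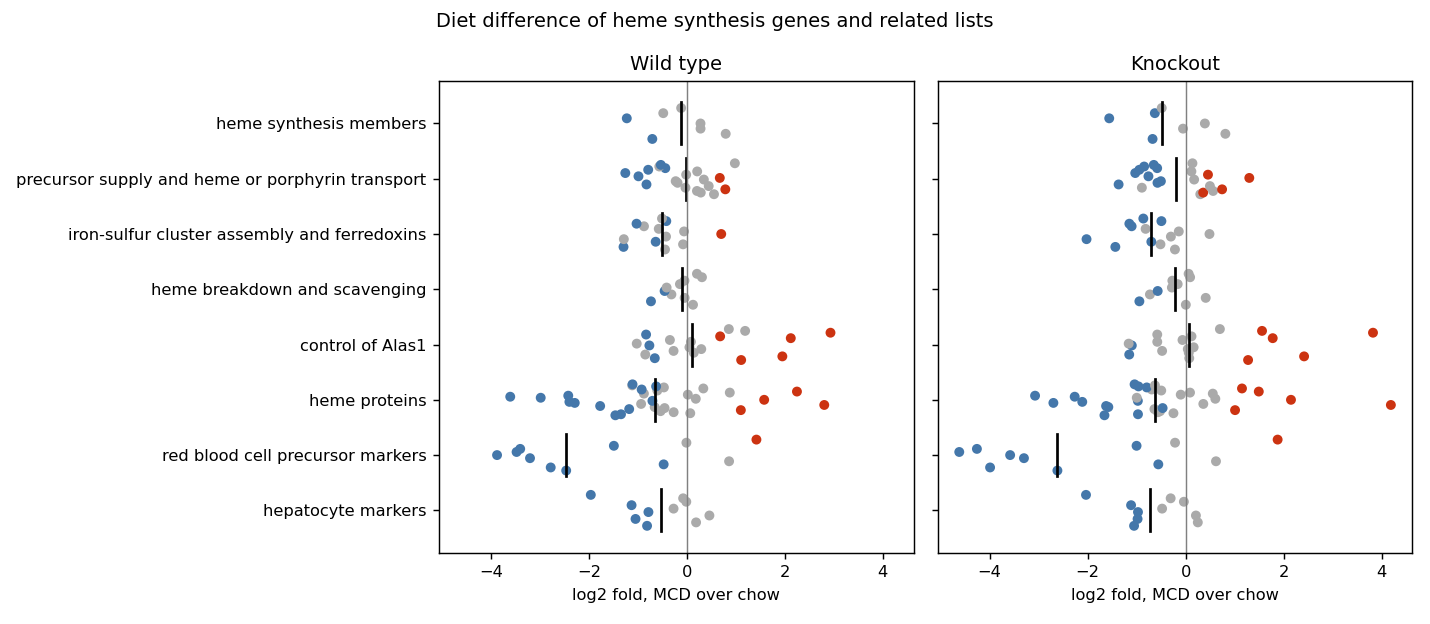
Log2 fold of MCD over chow (horizontal axis) of each tested gene in the 7 enzymes, the related lists and 2 marker lists, in the wild type (left) and the knockout (right); red points were called higher, blue points lower and grey points not called, and black bars are list medians. The enzymes' median lies at -0.12 and -0.49 and that of heme proteins at -0.66 and -0.63; with library totals alone the median of all genes moves by 0.53 and 0.77, which turns the split of several lists.

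Markers of other liver cells were read as well. Of 9 tested macrophage markers 3 rose and 2 fell in each genotype, of 4 bile duct markers 2 rose and 0 fell in each, and of 7 stellate cell markers 1 rose in wild-type and 2 in knockout rats. Of all genes 18.2% and 21.9% rose and 15.9% and 18.5% fell. Of 5 endothelial markers 1 rose and 1 fell in the wild type and 2 rose in the knockout, and of 4 lymphocyte markers 1 fell in the wild type. Of 5 neutrophil markers only S100a9 could be tested, and it fell in the knockout. Scaled by library totals alone, 4 and 7 stellate cell, 2 and 5 endothelial, 4 and 6 macrophage and 3 and 4 bile duct markers rose in wild-type and knockout rats. With that scaling 43.1% and 57.8% of all genes rose. Summed macrophage markers ran from 375 to 570 CPM in WT-CHOW, 445 to 707 in KO-CHOW, 509 to 884 in WT-MCD and 490 to 772 in KO-MCD. Summed bile duct markers ran from 16.6 to 38.6 and 17 to 32.0 CPM on chow and from 71.8 to 130.3 and 74.8 to 117.8 CPM on the MCD diet. Their part in the diet differences of the enzymes was not tested.

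For each enzyme that fell, the 3 genes of the 11161 others with the most similar profile over the 16 libraries were found, by the root mean square difference of centred log2 CPM. For Ppox they were Khk, the fructokinase (0.17), Gamt, which makes creatine (0.17), and Fahd2a (0.18), where the SD of Ppox itself was 0.78. For Alad they were Masp2, a protease of the complement system (0.13), Ptov1 (0.13) and Mrpl52, a mitochondrial ribosomal protein (0.14), against an SD of 0.39. For Urod they were Ilkap (0.10), Ube2b (0.12) and Bcas2 (0.12), against an SD of 0.42. Khk was at log2 folds of -1.25 and -1.64 on the MCD diet, beside -1.23 and -1.56 for Ppox, a closeness that follows from choosing Khk by its profile in these libraries.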

How the data were processed

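Poly(A) RNA from rat liver went through a stranded library kit, as the labels' protocols say; the series title speaks of mice and every organism label of rat. The authors deposited expected counts per gene. The tools and build named in the submitters' processing notes are RSEM 1.2.15, Bowtie2 2.1.0 and rn6. Of the counts 88.9% were whole, and reads shared by close copies are split among them. A normalised signal that the authors also deposited is the rounded count times a constant for each library, checked on 202017 values above 0 (relative tolerance 1e-06). After rounding, counts were fitted in edgeR 4.0.16 (R 4.3.3) with filterByExpr (minimum count 10), TMM, 1 term per group and the robust quasi-likelihood test (12 residual degrees of freedom, common biological coefficient of variation 28.0%), with Benjamini-Hochberg adjustment over all genes. DESeq2 1.42.0, limma 3.58.1, other scalings, no filter, a replicate block and left-out libraries were alternatives. Within groups, no 2 libraries agreed within sampling noise (chi-square per gene at least 15.3). The test was checked on simulated data. Members, lists and rules (all 7 enzymes, per list up to 4 called genes of smallest p, the 3 most similar genes) were chosen with earlier results of these data known. Some listed genes are not reported here and enter no list count. RefSeq tables (GRCr8) gave the promoters.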

Additional observations from a re-analysis of the deposited data

Results flagged for a closer look

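Of 36 pairs of a gene and a group, 5 had a library far from the other 3 by Dixon's test at 95%, the gap to the nearest library over the range of the group; chance gives about 1 in 20. In KO-CHOW the library labelled 4 was high for Urod (83.3 CPM, others 49.6 to 53.3), Ppox (68.3 CPM, others 33.7 to 36.2), Fech (64.5 CPM, others 40.7 to 43.4) and Tspo (4.42 CPM, others 0.656 to 1.29). Alas2 was low in KO-MCD 2, at 0.458 CPM against 0.828 to 0.904, from few counts. Of the 5, 4 lay in KO-CHOW 4, which also stood apart on the second principal component.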

How the results depend on the processing

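Ppox and Alas1 kept their direction on the MCD diet in all 28 alternatives in both genotypes, and Ppox its call; Alas1 was called in 11 of 28 in wild-type and 8 of 28 in knockout rats. The number of enzymes called in the wild type, 0 higher and 2 lower in the analysis reported, was 4 with library totals alone (3 higher and 1 lower, with 5314 of all genes called in place of 3809), 4 without KO-CHOW 4 and KO-MCD 1 (1 and 3, with 5164), 6 without these and WT-CHOW 4 (3 and 3, with 5664), 4 with libraries 1 to 3 only (2 and 2, with 4043) and 4 with only the groups compared (1 and 3, with 4108). Leaving out 1 library in turn it was 2 to 4, with 4 without KO-MCD 1, a library outside this contrast. For the knockout the analysis reported had 0 higher and 3 lower, with 4514 of all genes called. The number of enzymes called was 5 with upper quartile factors (2 and 3, with 4522). It was also 5 without KO-CHOW 4 and KO-MCD 1 (2 and 3, with 4879) and without the 3 libraries (2 and 3, with 5790). It was 4 with library totals alone (3 and 1, with 6852) and 2 with only the groups compared (0 and 2, with 3334). Leaving out 1 library in turn it was 2 to 4, with 2 without KO-MCD 2, 3 or 4 (3347, 3690 and 3428 of all genes). The cause was not tested. The number called stayed at 0 for both knockout contrasts and the difference of the diet effects in every alternative.

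Some log2 folds changed sign. Library totals alone gave, on the MCD diet, 0.414 (Uros) and 0.0533 (Urod) in the wild type and 0.0589 (Alad), 0.224 (Uros), 0.108 (Urod) and 0.664 (Cpox) in the knockout. They also gave -0.112 (Alas1) and -0.0573 (Uros) for the knockout on chow, -0.0271 (Ppox) for the knockout on MCD and 0.0543 (Urod) for the difference; this scaling moves the median gene by construction. Upper quartile factors gave 0.0501 (Cpox, knockout diet). For the difference Alas1 was at -0.00755 with DESeq2, -0.00754 with its size factors in edgeR, and -0.0812 and -0.0820 with limma at pseudocounts of 1 and 0.5. Limma gave, in the wild-type diet contrast, 0.0238 and 0.0384 for Uros. Libraries 1 to 3 alone gave 0.222 (Uros) in that contrast, 0.00754 (Alad) and -0.158 (Alas1) for the knockout on MCD, and -0.298 (Alas1), 0.0544 (Urod) and 0.0513 (Ppox) for the difference. Without the 3 libraries the wild-type diet value of Uros was 0.238. For the knockout on MCD, Ppox was at -0.155 and Urod at -0.0442 without the 3 libraries, and at -0.155 and -0.0441 without KO-CHOW 4 and KO-MCD 1. The cause was not tested.

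Leaving out 1 library in turn, the difference ranged from -0.0599 to 0.138 (Alad), -0.298 to 0.228 (Alas1), -0.00413 to 0.297 (Fech) and -0.371 to 0.0574 (Urod). The knockout on MCD ranged from -0.0917 to 0.0365 (Alad), -0.163 to 0.362 (Alas1), -0.155 to 0.135 (Ppox) and -0.0444 to 0.275 (Urod). On chow it ranged from -0.155 to 0.0430 (Alad), -0.0624 to 0.338 (Alas1), -0.220 to 0.0814 (Fech) and -0.0500 to 0.544 (Uros). The wild-type diet contrast ranged from -0.347 to 0.248 (Uros).

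With the replicate number as a block 2 enzymes were called in wild-type and 3 in knockout rats. Same-numbered libraries correlated between -0.316 and 0.511 in their deviations from group means, with 0 of 4 pairs over 0.1 in the wild-type diet contrast, 1 in the knockout diet contrast, 3 for knockout against wild type on chow and 2 on MCD. Of the 8 libraries of each contrast 0, 1, 2 and 4 correlated best with their own number. Pairing was accepted only where all 4 pairs were over 0.1, so the numbers were not taken to pair the libraries. Uros had the fewest counts, 15 to 101 a library, yet Alas1 with 459 to 5730 had the larger SE in the wild-type diet contrast (0.319 against 0.281), so what limits Uros was not settled.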
